A study of Homo sapiens
Mus musculus and Mus musculus and Homo sapiens with 3 samples.

Results

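Neural progenitors that carry transcripts of the transcription factor NKX2-2 were divided here by whether they also carried a transcript of OLIG2. They were gated from single-cell RNA-seq of human and mouse motor neuron differentiation cultures. The members were chosen by their UMIs of 4 genes. A cell entered the gate with at least 1 UMI (a unique molecular identifier, which marks 1 captured transcript) of SOX2, a progenitor factor, at least 1 UMI of NKX2-2 and 0 UMIs of STMN2, a neuronal gene. Of 8683 cells used, 475 met these conditions. OLIG2 was at 0 UMIs in 142 of them, called OLIG2-negative below, and at 1 UMI or more in 333, called OLIG2-positive.

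Human and mouse pluripotent stem cells had been marked before differentiation with a lentivirus that carries a barcode behind GFP under the CAGGS promoter, and were then differentiated in vitro as embryoid bodies to motor neurons. Cells were dissociated with papain and DNase I, sorted for GFP, and profiled with the 10x Genomics 3′ assay. Replicate 1 was a single mixed library of the human line NCRM1 (induced pluripotent stem cells) and mouse embryonic stem cells of the strain C57BL/6, deposited as a human and a mouse count table. Replicate 2 was 1 library of the human line RUES1, whose cell type the labels give as iPS, and 1 library of C57BL/6 mouse embryonic stem cells. The labels give no drug or genetic perturbation, and the day on which a single cell was sampled is not known here. Each species is therefore represented by 2 cultures, human replicates by different lines. Gene p-values below rest on the spread over 4 library parts, or over 3 where a part was left out, shared across genes by the test. Because human and mouse replicate 1 shared a library, the 60 cell barcodes found in both of its tables were dropped. Between the separate libraries, 2 barcodes were shared by human replicate 2 and mouse replicate 2, and 1 by mouse replicates 1 and 2.

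In the ventral neural tube, Sonic hedgehog released from the floor plate sets up progenitor domains in bands. FOXA2 marks the floor plate, NKX2-2 the neighbouring p3 domain that gives rise to V3 interneurons or, in the hindbrain, visceral motor neurons, and OLIG2 the next domain, from which somatic motor neurons and later oligodendrocyte precursors arise. NKX2-2 and OLIG2 repress each other in mouse and chick, and PAX6 limits NKX2-2 dorsally. The comparison asks which of these neighbouring identities the NKX2-2 progenitors without an OLIG2 transcript resembled, and whether human and mouse cells did so alike.

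The 142 OLIG2-negative cells were spread unevenly over the library parts. Human replicate 1 gave 1 OLIG2-negative and 54 OLIG2-positive cells, and human replicate 2 gave 50 OLIG2-negative and 116 OLIG2-positive cells. Mouse replicate 1 gave 67 OLIG2-negative and 100 OLIG2-positive cells, and mouse replicate 2 gave 24 OLIG2-negative and 63 OLIG2-positive cells. The human OLIG2-negative values thus come almost wholly from replicate 2, and each result below is also given with human replicate 1 left out where that matters. Summed over cells, the OLIG2-negative side held 23070, 995803, 1166560 and 574401 UMIs in the 4 parts, which are listed throughout as human replicate 1, human replicate 2, mouse replicate 1, mouse replicate 2. In the same order the OLIG2-positive side held 840498, 2850778, 2226067 and 1685192 UMIs.

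The OLIG2-negative cells were the shallower ones wherever more than 1 cell could be compared. Their median UMI count per cell was 18479.5 in human replicate 2, 16677 in mouse replicate 1 and 20225.5 in mouse replicate 2, against 23285.5, 21385 and 25658 in OLIG2-positive cells. The single OLIG2-negative cell of human replicate 1 had 23070 UMIs, against a median of 14615 in OLIG2-positive cells. Mitochondrial genes took a median of 4.98%, 1.83% and 1.28% of UMIs in OLIG2-negative cells of human replicate 2 and the mouse replicates, and 5.32%, 2.12% and 1.21% in OLIG2-positive cells. Scrublet, a doublet caller, marked 2 OLIG2-negative cells of human replicate 2, 1 of mouse replicate 2 and no OLIG2-positive cell. It marked between 5 and 32 cells of each whole library part.

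The gate genes themselves are a description, since they chose the cells. NKX2-2 averaged 2.02, 2.21 and 1.67 UMIs per OLIG2-negative cell in human replicate 2 and mouse replicates 1 and 2, against 1.84, 1.64 and 1.48 UMIs per OLIG2-positive cell. Per gated cell, the NKX2-2 mean was thus not lower on the shallower side in these parts. Cells with 0 NKX2-2 UMIs were outside the gate, so these means cannot show how depth affected NKX2-2. OLIG2 was at exactly 1 UMI, the count next to the boundary, in 5, 20, 26 and 10 OLIG2-positive cells of the 4 parts. SOX2 stood at 564, 569, 255 and 292 CPM (UMIs of a gene per 1000000 UMIs of its sum) in OLIG2-negative sums of the 4 parts, against 452, 508, 195 and 275 CPM in OLIG2-positive sums. In the single OLIG2-negative cell of human replicate 1, 1 UMI reads 43.3 CPM and 0 UMIs read 0. For genes of low level its direction is thus set by depth, and agreement of 4 of 4 parts adds little beyond the other parts. Of a list of 15 neural progenitor genes, all were detected on both sides in both mouse replicates and in OLIG2-positive cells of both human replicates. OLIG2-negative cells of human replicate 2 held 14 of them, with PAX6 at 0.

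The share of NKX2-2 progenitors without an OLIG2 UMI was 1.82% in human replicate 1, with a 95% exact Clopper-Pearson interval of 0.046% to 9.72%. It was 30.1% (23.3% to 37.7%) in human replicate 2, 40.1% (32.6% to 48.0%) for mouse replicate 1, and in mouse replicate 2 it was 27.6% (18.5% to 38.2%). Human replicate 1 lay below the intervals of the other 3 parts, which overlapped each other. The mean was 15.97% ± 20.01 in human and 33.9% ± 8.86 in mouse (SD, n = 2 each), a difference of -17.9 percentage points that 4 parts cannot resolve (two-sided exact permutation test, p = 0.667, smallest possible 0.3333). These intervals cover counting error only.

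Because the sides differed in depth, cells were thinned at random to 10500 UMIs and the gate was applied again. The share without OLIG2 then read 9.68% (3 of 31 cells), 43.1% (44 of 102), 55.0% (55 of 100) and 32.5% (13 of 40) in the 4 parts. Thinning moved 2, 11, 8 and 3 OLIG2-positive cells across to 0 UMIs. It left out 0, 7, 4 and 4 OLIG2-negative and 9, 5, 2 and 5 OLIG2-positive cells as too shallow. Other cells left the gate because NKX2-2 or SOX2 fell to 0 UMIs. The gate held 55, 166, 167 and 87 cells before thinning, so the thinned shares and tests rest on a different and smaller set of cells and on fewer UMIs. A call lost after thinning can therefore not be put down to depth alone. The order of the 4 parts was the same at both depths.

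**Figure D1:**
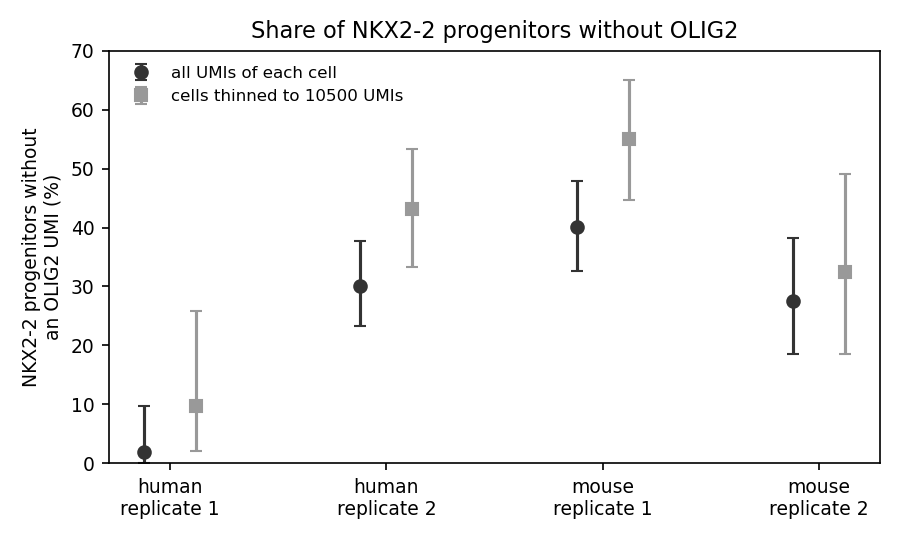
Percent of NKX2-2 progenitors with no OLIG2 UMI (y axis) in each library part (x axis), from all UMIs of each cell (dark circles) and after thinning to 10500 UMIs per cell (grey squares), with 95% Clopper-Pearson intervals. Human replicate 1 reads 1.82% and the other 3 parts lie between 27.6% and 40.1% before thinning.

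Counts were summed per library part and side and compared with edgeR's quasi-likelihood test, with the library part as a block, over 8491 genes. In this fit and in those within and between the species, edgeR took the spread almost wholly from all genes together. A small p-value there does not measure a gene's own spread over the parts. OLIG2-negative progenitors differed from OLIG2-positive progenitors in 76 genes at a Benjamini-Hochberg adjusted p under 0.05, which is 0.895% of the genes tested. Of these, 47 were higher (0.554%) and 29 lower (0.342%) in OLIG2-negative cells. The same contrast within human called 71 genes (0.836%; 42 higher, 29 lower) and within mouse 32 genes (0.377%; 30 higher, 2 lower). Leaving out human replicate 1, with its single OLIG2-negative cell, gave 50 calls over both species (0.566%), of which 43 were among the 76, 199 in human (2.08%) and 90 in mouse (0.941%; 56 higher, 0.586%). Without that part the human calls rest on human replicate 2 alone, with the spread taken from mouse. The calls depend on the block: without it, 0 genes passed over both species (140 of 7815 at an unadjusted p under 0.05), 3 in human and 0 in mouse. DESeq2's Wald test called 7, 7 and 4 genes.

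Floor plate genes rose as a group on the OLIG2-negative side. SHH, the secreted ligand that patterns the ventral neural tube, stood at 0, 138, 6.86 and 6.96 CPM in OLIG2-negative sums of the 4 parts, against 0, 9.12, 0 and 1.19 CPM in OLIG2-positive sums. Human replicate 2 held most of its UMIs, 137 in OLIG2-negative cells, while mouse replicates 1 and 2 held 8 and 4. SHH rose by 3.84 ± 0.39 on the log2 scale over both species (SE; edgeR adjusted p = 4.2e-19, higher in the 3 parts that had any UMI), and by 3.89 ± 0.37 without human replicate 1 (adjusted p = 2.5e-05). In human it rose by 3.88 ± 0.43 (edgeR adjusted p = 9.6e-16). In mouse the fold rests on 12 UMIs in OLIG2-negative and 2 in OLIG2-positive cells, a ratio of CPM of 13.5 with an exact counting interval of 3.001 to 124. There its edgeR adjusted p was 0.050, just above the threshold, and 0.0073 without human replicate 1.

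FOXA2, the transcription factor that specifies the floor plate, stood at 0, 65.3, 51.4 and 17.4 CPM in OLIG2-negative sums of the 4 parts in the same order, against 0, 8.07, 27.9 and 7.12 CPM in OLIG2-positive sums. It rose by 1.73 ± 0.28 over both species (log2; edgeR adjusted p = 5.4e-07) and by 2.98 ± 0.47 in human (adjusted p = 1.6e-07). In mouse the difference was 0.98 ± 0.37 with an edgeR adjusted p of 0.66, although both replicates were higher on the OLIG2-negative side. Without human replicate 2 the change over both species was 0.99 with an adjusted p of 0.68, so the FOXA2 call rests on that part. In cells thinned to 10500 UMIs the human change was 2.56 with an adjusted p of 0.36.

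NTN1, the axon guidance cue netrin, was at 43.3, 89.4, 72.0 and 106 CPM in OLIG2-negative sums, against 14.3, 21.7, 32.8 and 62.3 CPM in OLIG2-positive sums of the 4 parts. It was higher in each part, the first of these from 1 UMI, and rose by 1.29 ± 0.24 (log2; edgeR adjusted p = 2.1e-05). In human it rose by 1.94 ± 0.40 (adjusted p = 0.00047), and in mouse it differed by 0.95 ± 0.29, with an adjusted p of 0.20 that became 0.0097 without human replicate 1. Without human replicate 2, the change of NTN1 over both species was 0.95 (adjusted p = 0.34). All 3 floor plate genes tested, of a list of 8, thus rose over both species, where 0.554% of all tested genes rose and the median of all genes was -0.05. FOXA1 and SPON1 were not tested over the 4 parts, and FERD3L and CORIN held at most 2 UMIs in any sum. FOXA1, a partner of FOXA2, stood at 41.2 CPM in OLIG2-negative and 5.96 CPM in OLIG2-positive cells of human replicate 2, and at most at 3.48 CPM in mouse. SPON1, a secreted matrix protein of the floor plate, stood at 172, 20.6 and 81.8 CPM in OLIG2-negative sums of human replicate 2 and both mouse replicates, against 55.4, 18.0 and 43.3 CPM in OLIG2-positive sums. In thinned cells FOXA2 and NTN1, the 2 genes of the list that were tested, were still called over both species.

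Called genes with large changes outside the floor plate list included SULF1, SLIT1, WLS, VTN and PCSK1N, which were not tested as a group. SULF1, an extracellular sulfatase that edits heparan sulfate, was at 55.2, 4.29 and 24.4 CPM in OLIG2-negative sums of human replicate 2 and mouse replicates 1 and 2, against 1.05, 3.59 and 3.56 CPM in OLIG2-positive sums. It rose by 3.24 ± 0.44 (edgeR adjusted p = 1.4e-10), with little difference in mouse replicate 1. SLIT1, a repellent axon guidance ligand, was at 114, 36.0 and 38.3 CPM, against 23.2, 20.2 and 10.7 CPM in OLIG2-positive sums of the same parts, and rose by 1.71 ± 0.26 (edgeR adjusted p = 7.0e-08, but 0.16 without human replicate 2). WLS, the carrier that exports WNT proteins, was at 43.3, 86.4, 52.3 and 157 CPM in OLIG2-negative sums of the 4 parts, against 11.9, 32.3, 30.1 and 74.8 CPM in OLIG2-positive sums. It rose by 1.10 ± 0.23 (edgeR adjusted p = 0.00074) and was higher in 4 of 4 parts, in human replicate 1 from 1 UMI. WLS was no longer called without human replicate 2 (0.36), without mouse replicate 2 (0.062) or after thinning (0.67). VTN, the matrix protein vitronectin, had 17, 8 and 11 UMIs in OLIG2-negative sums of human replicate 2 and mouse replicates 1 and 2, and 1 UMI in each OLIG2-positive sum of those parts. Its ratio of CPM in mouse was 21.3, with a counting interval of 5.15 to 189. PCSK1N, a secreted inhibitor of prohormone convertase 1, was at 178, 10.3 and 20.9 CPM in OLIG2-negative sums of human replicate 2 and mouse replicates 1 and 2, against 24.6, 1.80 and 3.56 CPM in OLIG2-positive sums. It rose by 2.73 ± 0.32 (edgeR adjusted p = 2.9e-14).

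**Figure D2:**
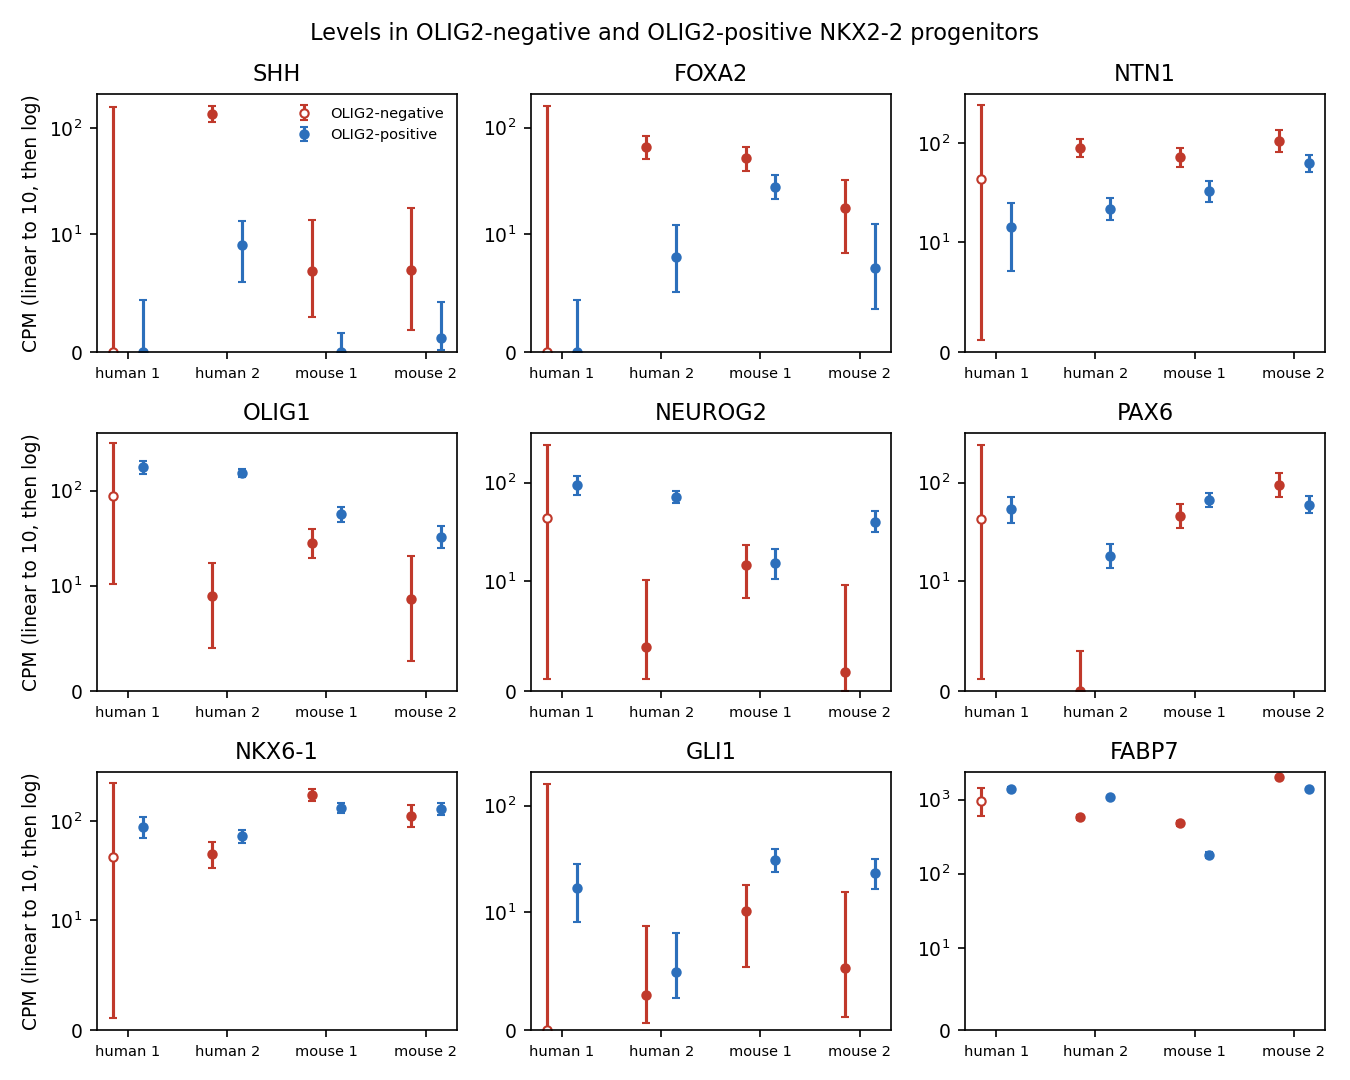
Level in CPM (y axis, linear up to 10 and logarithmic above) of 9 genes in OLIG2-negative (red) and OLIG2-positive (blue) NKX2-2 progenitors of each library part (x axis), with exact Poisson 95% intervals that cover counting error only. Open red circles are sums of 1 cell. SHH is at 138 CPM in OLIG2-negative and 9.12 CPM in OLIG2-positive cells of human replicate 2, while OLIG1 is lower on the OLIG2-negative side in every part.

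Per cell, FOXA2 was detected in 19 of 50, 34 of 67 and 7 of 24 OLIG2-negative cells of human replicate 2 and mouse replicates 1 and 2, which is 38.0%, 50.7% and 29.2%. In OLIG2-positive cells of those parts it was detected in 10 of 116, 29 of 100 and 4 of 63, or 8.62%, 29.0% and 6.35%. Thinned to 10500 UMIs per cell the shares were 20.9%, 41.3% and 25.0% in OLIG2-negative cells, and 5.41%, 19.4% and 3.45% in OLIG2-positive cells. SHH was detected in 23 of 50, 2 of 67 and 2 of 24 OLIG2-negative cells and in 14 of 116, 0 of 100 and 2 of 63 OLIG2-positive cells. As background, neurons with at least 5 STMN2 UMIs had a FOXA2 UMI in 1 of 359, 2 of 167 and 0 of 455 cells, and a SHH UMI in 1 of 359, 0 of 167 and 6 of 455 cells of these parts. Their median depths were 15622, 13866 and 22529 UMIs.

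FOXA2 and SHH marked a subset of the OLIG2-negative cells and did not cover it. In human replicate 2, 28 of 50 OLIG2-negative cells had a UMI of FOXA2 or SHH and 14 had both, against 21 and 3 of 116 OLIG2-positive cells. In mouse replicates 1 and 2, 34 of 67 and 7 of 24 OLIG2-negative cells had either gene, against 29 of 100 and 6 of 63 OLIG2-positive cells. In human replicate 2 the 28 OLIG2-negative cells with either gene held 133 CPM of NTN1 and the 22 without held 34.1 CPM. With all such cells left out of both sides, 26 genes passed over both species, 18 higher and 8 lower in OLIG2-negative cells, and 24 of them were among the 76. NTN1 and SLIT1 were then no longer called.

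**Figure D3:**
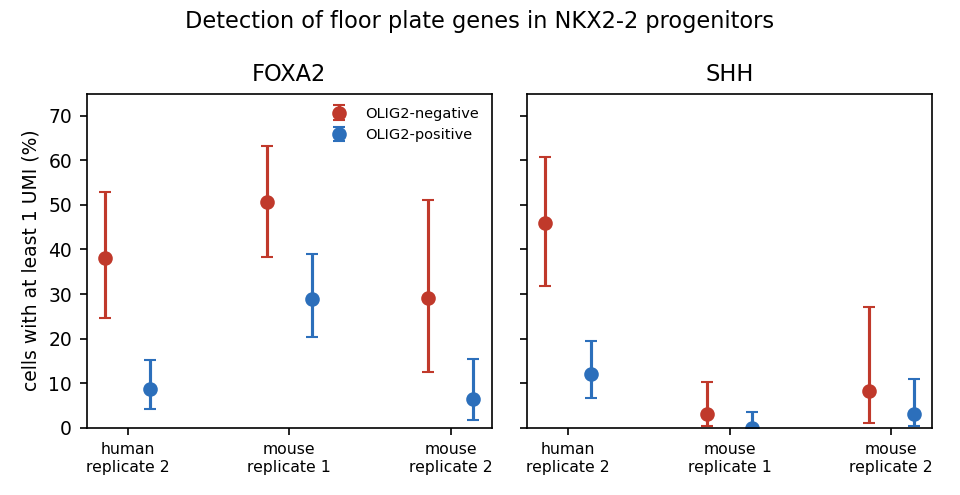
Percent of OLIG2-negative (red) and OLIG2-positive (blue) NKX2-2 progenitors with at least 1 UMI (y axis) of FOXA2 and SHH in 3 library parts (x axis), with 95% Clopper-Pearson intervals. FOXA2 is more often detected on the OLIG2-negative side in each part, and SHH is detected mainly in human replicate 2.

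Of the 6 tested genes of the motor neuron progenitor list, OLIG1 and NEUROG2 fell and the other 4 did not pass the test, where 0.342% of all tested genes fell. Neither call held without human replicate 2. OLIG1, a basic helix-loop-helix factor of motor neuron and oligodendrocyte progenitors, was at 86.7, 9.04, 28.3 and 8.70 CPM in OLIG2-negative sums of the 4 parts, against 175, 154, 56.2 and 32.6 CPM in OLIG2-positive sums. It was lower in each part and fell by 2.21 ± 0.29 on the log2 scale (edgeR adjusted p = 9.6e-11, but 0.16 without human replicate 2). In human it fell by 3.81 ± 0.49 (adjusted p = 1.9e-11). In mouse it differed by -1.20 ± 0.39, with an adjusted p of 0.28 that became 0.0043 without human replicate 1. Cells with exactly 1 OLIG2 UMI lay between the extremes, with 58.9, 32.2 and 19.2 CPM of OLIG1 in human replicate 2 and mouse replicates 1 and 2, against 167, 63.6 and 34.5 CPM in cells with at least 2 OLIG2 UMIs. Floor plate genes were mixed in this respect. FOXA2 was at 2.81, 32.2 and 4.81 CPM in cells with 1 OLIG2 UMI, against 8.82, 26.5 and 7.45 CPM with at least 2, so it lay between in mouse replicate 1 alone. SHH lay between in human replicate 2, at 22.4 against 7.22 CPM.

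NEUROG2, the proneural factor that drives motor neuron birth, was at 43.3, 4.02, 14.6 and 1.74 CPM in OLIG2-negative sums, against 94.0, 71.2, 15.3 and 40.4 CPM in OLIG2-positive sums of the 4 parts. Mouse replicate 1 showed next to no difference, and mouse replicate 2 rested on 1 against 68 UMIs. NEUROG2 fell by 2.25 ± 0.34 over both species (edgeR adjusted p = 3.6e-08, but 0.053 without human replicate 1 and 0.36 without human replicate 2) and by 3.86 ± 0.58 in human (adjusted p = 2.4e-08).

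Of 6 tested genes of a list drawn up for domains dorsal to OLIG2, 2 fell over both species (PRDM8 and SP8) and none rose, where 0.342% of all tested genes fell and 0.554% rose. PRDM8 is not restricted to those domains, so its fall is not a fall of dorsal identity as such. PRDM8, a transcriptional regulator of ventral interneuron and motor neuron progenitors, was at 0, 2.01, 10.3 and 6.96 CPM in OLIG2-negative sums, against 25.0, 35.1, 18.4 and 56.4 CPM in OLIG2-positive sums of the 4 parts. It fell by 2.32 ± 0.36 (edgeR adjusted p = 7.6e-08) and was lower in 4 of 4 parts, in human replicate 1 from 0 UMIs in 1 cell. In human replicate 2 this was 2 against 100 UMIs, a ratio of CPM of 0.0573 with a counting interval of 0.00684 to 0.212. SP8, a zinc finger transcription factor, fell by 1.76 ± 0.47 (edgeR adjusted p = 0.022, but 0.095, 0.13 and 0.50 without human replicate 1, human replicate 2 and mouse replicate 2).

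PAX6, which bounds the NKX2-2 domain dorsally, was at 43.3, 0, 46.3 and 95.8 CPM in OLIG2-negative sums of the 4 parts, the first of these from 1 UMI, against 53.5, 18.2, 67.4 and 59.9 CPM in OLIG2-positive sums. Human replicate 2 was the lowest part on both sides. PAX6 was detected in 25 of 54 OLIG2-positive cells of human replicate 1 (46.3%), and in 48.0% and 47.6% of those of mouse replicates 1 and 2. In human replicate 2 it was detected in 0 of 50 OLIG2-negative and 24 of 116 OLIG2-positive cells, with 0 and 52 UMIs. Set at a floor of 3 counts in the OLIG2-negative sum, it was at least 6.05-fold lower there. PAX6 fell in human with an edgeR adjusted p of 0.012, which was 0.66 without human replicate 2, 0.13 without either mouse replicate and 0.69 after thinning. The mouse replicates went opposite ways. The difference between the species did not pass (edgeR adjusted p = 0.062), and passed without human replicate 1 (0.00018). Within OLIG2-negative cells of mouse replicate 1, PAX6 was at 6.90 CPM in cells with FOXA2 or SHH and at 85.3 CPM in cells without, and in mouse replicate 2 at 12.6 and 128 CPM.

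NKX6-1, a homeobox factor of the whole ventral neural tube from the floor plate border to the V2 domain, was at 43.3, 46.2, 183 and 113 CPM in OLIG2-negative sums, against 86.9, 70.2, 136 and 133 CPM in OLIG2-positive sums of the 4 parts. It was lower in 3 parts and higher in mouse replicate 1. Its difference of -0.12 ± 0.22 did not pass the test (edgeR adjusted p = 1.0) and changed sign without human replicate 2. NKX6-1 was thus detected on both sides in every part.

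SIM1, the transcription factor of V3 neurons, had 0 UMIs in all 8 sums. A count of 0 allows up to 130, 3.01, 2.57 and 5.22 CPM in OLIG2-negative sums of the 4 parts, and up to 3.57, 1.05, 1.35 and 1.78 CPM in OLIG2-positive sums. NEUROG3, a proneural factor of V3 progenitors in mouse, had 0, 4, 3 and 12 UMIs in OLIG2-negative sums, against 0, 3, 0 and 4 UMIs in OLIG2-positive sums, and was too sparse to test. The NKX2 relatives of the p3 domain are annotated under different symbols in human and mouse and were left untested. NKX2-8 was at 137 and 111 CPM in OLIG2-negative and OLIG2-positive cells of human replicate 2. NKX2-9 was at 217 and 111 CPM in OLIG2-negative sums of mouse replicates 1 and 2, against 428 and 142 CPM in OLIG2-positive sums.

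Of 5 tested genes of a hindbrain visceral motor neuron list, 0 rose and 0 fell over both species. TBX20, a factor of visceral and branchial motor neurons, had 0 UMIs in all 8 sums. None of 26 tested HOX genes, which encode position along the body axis, passed the test over both species.

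Within the Sonic hedgehog pathway, the ligand and a target went opposite ways. GLI1, a transcription factor and direct target of the pathway, was at 0, 3.01, 10.3 and 5.22 CPM in OLIG2-negative sums of the 4 parts, against 16.7, 4.91, 30.5 and 23.1 CPM in OLIG2-positive sums. It was lower in 4 of 4 parts, in human replicate 1 from 0 UMIs in 1 cell. GLI1 fell by 1.58 ± 0.40 (edgeR adjusted p = 0.014, but 0.075, 0.64 and 0.35 without human replicate 1, mouse replicate 1 and mouse replicate 2). PTCH1, the SHH receptor and also a target, was at 121, 144 and 144 CPM in OLIG2-negative sums of human replicate 2 and mouse replicates 1 and 2, against 217, 181 and 222 CPM in OLIG2-positive sums. It differed by -0.61 ± 0.21, which did not pass (edgeR adjusted p = 0.18). In thinned cells it fell by 0.78, with an adjusted p of 0.024. Of 10 tested genes of the pathway, SHH rose and GLI1 fell, where 0.554% of all tested genes rose and 0.342% fell.

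Committed oligodendrocyte and astrocyte genes were all but absent from both sides. PDGFRA, the growth factor receptor of oligodendrocyte precursors, had 1 UMI in OLIG2-negative and 1 in OLIG2-positive cells of human replicate 2 and 0 elsewhere. GFAP, an astrocyte filament, had 0 UMIs in all 8 sums, and S100B, CSPG4 and AQP4 had at most 2 in any. SOX10, a factor of the oligodendrocyte lineage, was the exception: mouse replicate 2 held 0 UMIs in 24 OLIG2-negative cells and 11 UMIs in 5 of 63 OLIG2-positive cells. Its other 6 sums held 1 UMI in all.

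Genes of radial glia and of the switch to glial production were measured more widely. Of 15 tested genes of the glial list, APOE rose and OLIG1 fell over both species, where 0.554% of all tested genes rose and 0.342% fell. In human APOE, NFIA and SLC1A3 rose and OLIG1 fell, where 0.495% of all tested genes rose and 0.342% fell. SLC1A3, a glutamate transporter of radial glia, was at 98.4 CPM in OLIG2-negative and 35.8 CPM in OLIG2-positive cells of human replicate 2. In mouse replicates 1 and 2 it was at 9.43 and 34.8 CPM in OLIG2-negative sums, against 21.6 and 90.8 CPM in OLIG2-positive sums. SLC1A3 rose by 1.33 ± 0.37 in human (edgeR adjusted p = 0.041), and its change differed between the species by 2.65 ± 0.53, human minus mouse (adjusted p = 0.00044). NFIA, a factor that starts glial production, was at 40.2 and 11.6 CPM in OLIG2-negative and OLIG2-positive cells of human replicate 2 and rose by 1.75 ± 0.48 in human (adjusted p = 0.036). APOE, a lipid carrier, was at 59.2 and 7.37 CPM there and rose by 2.76 ± 0.46 (adjusted p = 1.1e-06). None of the 15 genes passed in mouse in the fit of all 4 parts. Once human replicate 1 was left out some did, among them SLC1A3, which fell in mouse by 1.38 ± 0.30 (edgeR adjusted p = 0.0011), opposite to human. Without human replicate 1, APOE was not called over both species (adjusted p = 0.29). In human, APOE, NFIA and SLC1A3 were no longer called after thinning (adjusted p = 0.42, 0.83 and 0.72), nor without the FOXA2 or SHH cells. Without human replicate 2 their human changes were -6.36, -3.66 and -7.55, each from 1 OLIG2-negative cell.

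FABP7, the fatty acid binding protein of radial glia, held more UMIs than these 3 genes and did not follow them. It was at 954, 577, 477 and 1990 CPM in OLIG2-negative sums of the 4 parts, against 1403, 1083, 179 and 1385 CPM in OLIG2-positive sums. FABP7 was thus lower on the OLIG2-negative side in both human parts and higher in both mouse parts. Its differences of -1.11 ± 0.40 in human and 0.96 ± 0.38 in mouse did not pass (edgeR adjusted p = 0.29 and 0.82), nor did the difference between the species, -2.06 ± 0.55 (adjusted p = 0.065). Without human replicate 1 it fell by 0.89 in human (adjusted p = 0.00034) and rose by 0.87 in mouse (1.2e-07), and the species differed by -1.76 ± 0.23 (5.2e-11). The species difference also passed after thinning, at -0.99 (adjusted p = 0.023), but not without either mouse replicate (1.0 in both). The whole glial list summed to 2434, 832 and 2519 CPM in OLIG2-negative cells of human replicate 2 and mouse replicates 1 and 2, against 3074, 521 and 2198 CPM in OLIG2-positive cells.

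Genes of neuronal birth were a group in which human and mouse parted. In mouse, 7 of 14 tested proneural genes rose on the OLIG2-negative side and 0 fell, where 0.353% of all tested genes rose. They were INSM1, DLL1, DLL3, NEUROD4, GADD45G, NEUROG1 and SRRM4. In human, 0 of the 14 rose and 3 fell (NEUROD4, NEUROG2 and SRRM4), where 0.342% of all tested genes fell. The list median was 1.45 in mouse and -1.01 in human, beside medians of -0.0048 and -0.12 over all genes tested. In cells thinned to 10500 UMIs, 1 of 12 tested genes of the list rose in mouse (DLL1) and 1 fell in human (SRRM4), with list medians of 1.05 and -0.26.

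INSM1, a zinc finger factor of cells that leave the cycle to become neurons, was at 0, 4.02, 78.9 and 52.2 CPM in OLIG2-negative sums of the 4 parts, against 1.19, 4.91, 22.0 and 4.15 CPM in OLIG2-positive sums. Both mouse replicates were higher on the OLIG2-negative side and human levels were low on both. INSM1 rose by 2.33 ± 0.34 in mouse (edgeR adjusted p = 2.5e-08). In mouse replicate 1 it was at 60.5 CPM in cells with exactly 1 OLIG2 UMI and at 10.0 CPM in cells with at least 2, and in mouse replicate 2 at 4.81 and 4.06 CPM. DLL1, a Notch ligand of newborn neurons, was at 62.6 and 47.0 CPM in OLIG2-negative sums of mouse replicates 1 and 2, against 22.9 and 12.5 CPM in OLIG2-positive sums, and rose by 1.61 ± 0.33 in mouse (adjusted p = 0.00087).

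NEUROD4, a proneural factor downstream of the neurogenins, was at 0, 2.01, 62.6 and 8.70 CPM in OLIG2-negative sums of the 4 parts, against 13.1, 34.7, 18.0 and 1.78 CPM in OLIG2-positive sums. It rose by 1.86 ± 0.40 in mouse (edgeR adjusted p = 0.0021). In human replicate 2 its ratio of CPM was 0.0578, with a counting interval of 0.00691 to 0.215, from 2 and 99 UMIs. Thinned to 10500 UMIs, its human change was -0.24 (edgeR adjusted p = 1.0). SRRM4, a splicing regulator of neuronal microexons, was at 0, 9.04, 32.6 and 29.6 CPM in OLIG2-negative sums, against 8.33, 109, 8.98 and 8.90 CPM in OLIG2-positive sums of the 4 parts. SRRM4 fell by 3.59 ± 0.51 in human (edgeR adjusted p = 1.3e-09) and rose by 1.80 ± 0.41 in mouse (adjusted p = 0.0050). NEUROG1 rose in mouse by 1.64 ± 0.38 (adjusted p = 0.0070), but this came from replicate 1 alone, with 84.0 and 20.7 CPM, since replicate 2 held 0 and 9 UMIs.

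The test of the difference itself called 21 of 8491 genes between the species (0.247%), of which 6 (0.0707%) had the more positive change in human and 15 in mouse. Of the proneural list, 6 of 14 were among the 15, where 0.177% of all tested genes were. NEUROD4 differed by -5.94 ± 0.87 (human minus mouse, log2; edgeR adjusted p = 2.0e-08), SRRM4 by -5.39 ± 0.66 (adjusted p = 1.5e-12) and DLL3 by -3.21 ± 0.60 (adjusted p = 0.00011). INSM1, DLL1 and GADD45G did not pass this test. Thinned to 10500 UMIs per cell, NEUROD4 differed by -2.58 (adjusted p = 0.54) and DLL3 by -1.79 (adjusted p = 0.88), while SRRM4 was the 1 proneural gene of 12 tested that was still called. The part of depth in these differences was not tested further. The human side of each difference comes from replicate 2, because its partner held 1 OLIG2-negative cell. Leaving that part out, 63 of 9560 genes passed, including all 6 of these proneural genes.

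The mouse calls also rest on both replicates. Without mouse replicate 1, the mouse changes of DLL1, DLL3, NEUROD4, GADD45G, SRRM4 and NEUROG1 were 1.82, 2.58, 2.13, 0.80, 1.63 and -5.67, none of them past the threshold. Without mouse replicate 2 they were 1.47, 1.99, 1.82, 1.47, 1.87 and 2.04, again with no call. INSM1 was called in both.

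Other genes of neuronal differentiation were measured beside these. EBF1, a factor of differentiating neurons, was at 23.1 and 29.6 CPM in OLIG2-negative sums of mouse replicates 1 and 2, against 4.49 and 4.75 CPM in OLIG2-positive sums, and rose by 2.46 ± 0.52 in mouse (edgeR adjusted p = 0.0012, but 0.91 and 0.38 without mouse replicate 1 and 2). IGFBPL1, an insulin-like growth factor binding protein of immature neurons, was at 66.0 and 80.1 CPM, against 8.98 and 6.53 CPM in OLIG2-positive sums, and rose by 3.17 ± 0.36 (adjusted p = 1.1e-14). Of 8 tested genes of a neuron list, 1 rose in mouse (MAP2), where 0.353% of all tested genes rose, and 1 fell in human (ELAVL4), where 0.342% fell. That whole list summed to 648 and 477 CPM in OLIG2-negative cells of mouse replicates 1 and 2, against 339 and 532 CPM in OLIG2-positive cells, and to 170 and 265 CPM in human replicate 2. It had UMIs from 12 to 15 of its 16 genes in the mouse sums, while STMN2 was at 0 by the gate. Its part in the proneural result was not tested.

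**Figure D4:**
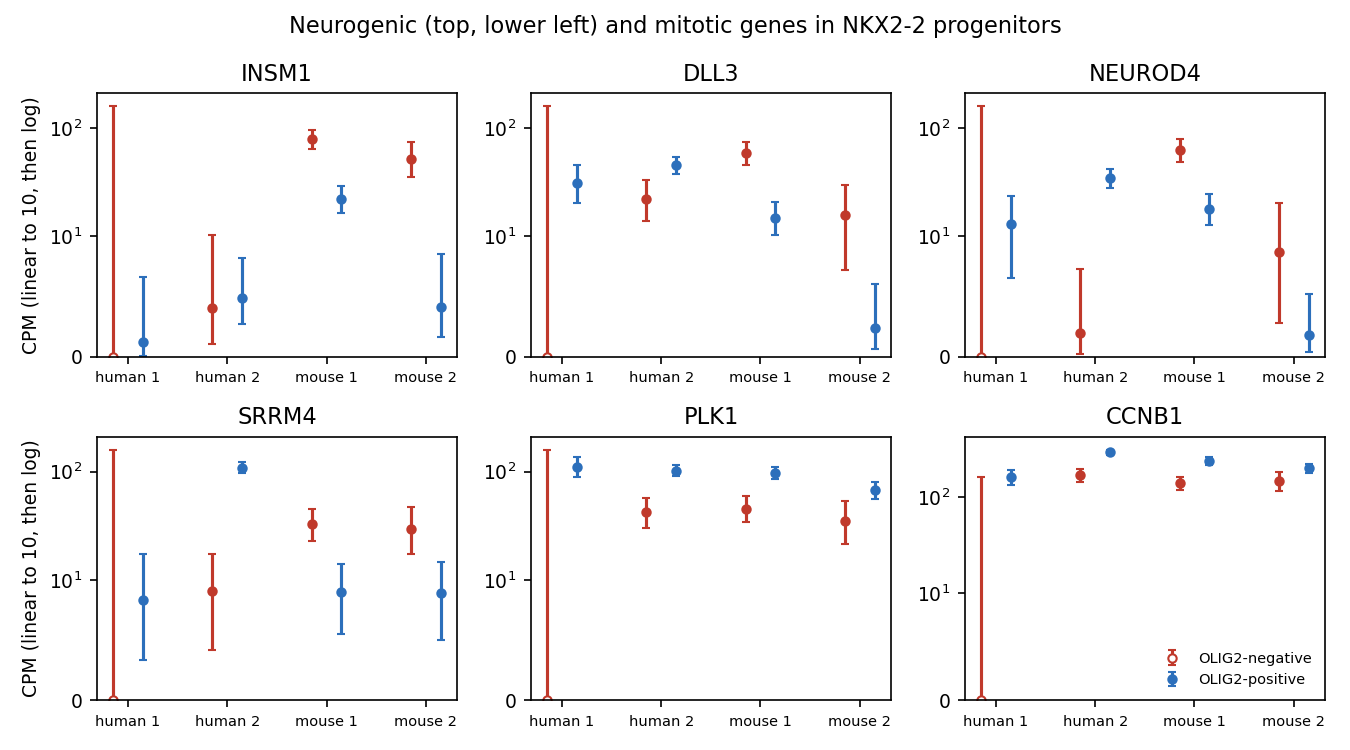
Level in CPM (y axis, linear up to 10 and logarithmic above) of 4 neurogenic genes (INSM1, DLL3, NEUROD4 and SRRM4) and 2 mitotic genes (PLK1 and CCNB1) in OLIG2-negative (red) and OLIG2-positive (blue) NKX2-2 progenitors of each library part (x axis), with exact Poisson 95% intervals. The 4 neurogenic genes are higher on the OLIG2-negative side in both mouse replicates, and the 2 mitotic genes are lower there in every part.

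Of 30 tested genes of G2 and M phase, 6 fell over both species, where 0.342% of all tested genes fell, and 0 rose, and all 30 had a negative log2 fold change, with a median of -0.63. Within human 1 of the 30 fell (PLK1), and within mouse 0 fell, with 29 negative. Without human replicate 1 the median was -0.53, 6 genes fell, and 5 of them were the same. PLK1, a kinase of mitotic entry, was at 0, 42.2, 45.4 and 34.8 CPM in OLIG2-negative sums of the 4 parts, against 111, 102, 97.5 and 67.1 CPM in OLIG2-positive sums. It was lower in 4 of 4 parts, in human replicate 1 from 0 UMIs in 1 cell, and fell by 1.19 ± 0.24 (edgeR adjusted p = 0.00033). CCNB1, the mitotic cyclin, was at 0, 170, 140 and 146 CPM, against 161, 291, 237 and 199 CPM in OLIG2-positive sums, and fell by 0.75 ± 0.21 (adjusted p = 0.039). CENPE, a kinetochore motor, fell by 0.97 ± 0.23 (adjusted p = 0.0047) and UBE2C, a ubiquitin conjugase of mitotic exit, fell by 1.02 ± 0.24 (adjusted p = 0.0043). Thinned to 10500 UMIs per cell, PLK1, CCNB1, CENPE and UBE2C differed by -0.32, -0.43, -0.40 and -0.54, with adjusted p of 1.0, 0.83, 0.99 and 0.087, and 0 of 29 tested genes of the list fell, with a list median of -0.34. Without human replicate 2 none of the 4 was called either (adjusted p = 0.15, 0.99, 0.38 and 0.35).

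Summed over the 30 genes, G2 and M phase transcripts came to 4507, 4344 and 5703 CPM in OLIG2-negative cells of human replicate 2 and mouse replicates 1 and 2, against 6646, 6135 and 7653 CPM in OLIG2-positive cells. S phase genes gave no call among 30 tested, with sums of 1924, 2924 and 4182 CPM, against 2681, 3257 and 3547 CPM in OLIG2-positive cells. CDKN1C, an inhibitor of cyclin-dependent kinases in cells that leave the cycle, was at 86.7, 245, 352 and 270 CPM in OLIG2-negative sums of the 4 parts, against 41.6, 200.3, 96.1 and 81.3 CPM in OLIG2-positive sums. It was higher in each part and rose by 1.23 ± 0.21 (edgeR adjusted p = 2.5e-06), and by 1.80 ± 0.30 in mouse (adjusted p = 1.7e-06). Over both species its adjusted p was 0.17 without mouse replicate 1 and 0.13 without mouse replicate 2.

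Some of the largest human changes had no counterpart in mouse. SERPINF1, a secreted serpin also known as PEDF, was at 192 CPM in OLIG2-negative and 4.91 CPM in OLIG2-positive cells of human replicate 2. In mouse replicates 1 and 2 it was at 56.6 and 59.2 CPM in OLIG2-negative sums, against 59.3 and 76.0 CPM in OLIG2-positive sums. It rose by 4.67 ± 0.45 in human (edgeR adjusted p = 1.7e-21) and its change differed from that in mouse by 4.87 ± 0.54 (adjusted p = 2.3e-15, but 0.27 without mouse replicate 2). DDC, the decarboxylase that makes dopamine and serotonin, had 41 UMIs in OLIG2-negative and 1 in OLIG2-positive cells of human replicate 2, a ratio of CPM of 117 with a counting interval of 19.9 to 4748. In mouse replicates 1 and 2 DDC was at 86.6 and 81.8 CPM in OLIG2-negative sums, against 60.6 and 117 CPM in OLIG2-positive sums. MOXD1, a copper monooxygenase, was instead mainly a mouse change. It was lower in each part, with 16 against 219 UMIs in mouse replicate 2 and 1 against 6 UMIs in human replicate 2. In mouse it fell by 1.95 ± 0.40 (edgeR adjusted p = 0.00092). Over both species it fell by 1.91 ± 0.38 (adjusted p = 0.00016, but 1.0 without mouse replicate 2).

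Of the called genes, 9 were higher on the OLIG2-negative side in each of the 4 parts and 23 were lower in each. Human replicate 1 counts here by 1 cell, so for genes of low level its sign adds little to that of the other parts. A gene with 0 UMIs in that cell could not count as higher. In the fit without human replicate 1, 21 called genes were higher in each of the other parts and 18 were lower. The balance of 9 to 23 therefore depends on that cell. NTN1, CDKN1C and WLS are described above, and the others that were higher were IGF2, SEPP1, CMTM8, PLK3, PLXNA2 and RHOC. IGF2, an insulin-like growth factor, was at 43.3, 35.1, 3.43 and 1.74 CPM in OLIG2-negative sums, against 9.52, 4.91, 2.25 and 1.19 CPM in OLIG2-positive sums, and rose by 2.05 ± 0.50 (edgeR adjusted p = 0.0063). In mouse replicates 1 and 2 these were 4 against 5 and 1 against 2 UMIs, too few to show a direction in mouse. Human replicate 2 held 35 against 14 UMIs. SEPP1, the secreted selenium carrier selenoprotein P, was at 43.3, 58.2, 17.1 and 10.4 CPM, against 19.0, 21.0, 2.70 and 4.15 CPM in OLIG2-positive sums, and rose by 1.61 ± 0.32 (adjusted p = 0.00015). CMTM8, a MARVEL domain membrane protein, was at 43.3, 131, 100.3 and 24.4 CPM, against 23.8, 11.9, 74.6 and 16.02 CPM in OLIG2-positive sums, and rose by 1.47 ± 0.26 (adjusted p = 3.4e-06). The human replicate 1 values of IGF2, SEPP1, CMTM8 and PLK3 on the OLIG2-negative side were 1 UMI each, and that of PLXNA2 was 2 UMIs. PLK3, a polo-like kinase, PLXNA2, a semaphorin receptor, and RHOC, a small GTPase, rose by 1.12, 1.03 and 0.95 (adjusted p = 0.014, 0.028 and 0.0019).

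These calls depended on single parts. Without human replicate 1, SEPP1 was called and CMTM8, PLK3, PLXNA2 and RHOC were not (edgeR adjusted p = 0.12, 0.052, 0.13 and 0.44). RHOC held 39 UMIs in the single OLIG2-negative cell of that part. Without human replicate 2, SEPP1 (0.13), CMTM8 (1.0) and PLK3 (0.11) were not called. Without mouse replicate 1, SEPP1 (0.089), PLK3 (1.0) and PLXNA2 (0.71) were not, and without mouse replicate 2, PLK3 (0.058) and PLXNA2 (0.48) were not. IGF2 was called without either mouse replicate and was not among the genes tested without either human replicate.

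The 12 largest falls among the 23 began with TMEM135, a membrane protein, at 0, 2.01, 1.71 and 1.74 CPM in OLIG2-negative sums of the 4 parts, against 10.7, 11.9, 8.09 and 8.31 CPM in OLIG2-positive sums. It fell by 2.35 ± 0.62 (edgeR adjusted p = 0.022), from at most 2 UMIs in any OLIG2-negative sum. PRDM8, NEUROG2, OLIG1, MOXD1, GLI1 and PLK1 are described with their groups. TMEM176A, PIF1, a DNA helicase, RPP40, a subunit of RNase P, CCNF, a cyclin of G2 that targets proteins for degradation, and PAPPA, a protease of insulin-like growth factor binding proteins, fell by 1.91, 1.72, 1.36, 1.29 and 1.25 (adjusted p between 0.0022 and 0.023). Of these and TMEM135, CCNF alone was called without human replicate 1 (adjusted p = 0.024), and it was not called without any of the other parts (0.35, 0.053 and 0.056) or after thinning (1.0).

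In human, CMTM8 rose by 3.02 ± 0.40 (edgeR adjusted p = 7.2e-11) and IGF2 by 2.59 ± 0.58 (0.0019). KCNG1, a potassium channel subunit, was at 168 CPM in OLIG2-negative and 32.6 CPM in OLIG2-positive cells of human replicate 2, and rose by 2.38 ± 0.36 in human (adjusted p = 2.3e-08). KNDC1, SLIT2, a repellent axon guidance ligand, METRNL, a secreted protein, and NEAT1, a long noncoding RNA of nuclear paraspeckles, rose by 2.89, 2.28, 1.67 and 1.48 (adjusted p between 0.00013 and 0.029). TNFAIP8L1 fell by 3.95 ± 1.09 (adjusted p = 0.041), from 1 and 47 UMIs in OLIG2-negative and OLIG2-positive cells of human replicate 2. Without human replicate 2, CMTM8, IGF2, SLIT2 and METRNL were not called in human (adjusted p between 0.63 and 1.0), and KCNG1, KNDC1 and TNFAIP8L1 were not among the genes tested. NEAT1 held 43 UMIs in the single OLIG2-negative cell of human replicate 1, and its human change was 0.90 without that part (adjusted p = 0.0045). NEAT1 was not called without either mouse replicate (0.74 and 1.0), nor was TNFAIP8L1 (0.12 and 0.13), nor CMTM8 without mouse replicate 2 (0.16).

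In mouse, SSTR2, a somatostatin receptor, was at 19.7 and 12.2 CPM in OLIG2-negative sums of replicates 1 and 2, against 2.25 and 0.593 CPM in OLIG2-positive sums. It rose by 3.36 ± 0.72 (edgeR adjusted p = 0.0016). EBF2, a factor of differentiating neurons, KALRN, and PAM, the enzyme that amidates neuropeptides, rose in mouse by 3.36, 3.31 and 2.84 (adjusted p = 0.013, 0.0026 and 0.00018). Without mouse replicate 2, none of SSTR2, EBF2, KALRN and PAM was called (adjusted p between 0.17 and 1.0). Without mouse replicate 1, SSTR2, KALRN and PAM were not called (adjusted p between 0.12 and 1.0) and EBF2 was not among the genes tested.

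CCND2, a cyclin of G1, was among the genes with the smallest p for the species difference once human replicate 1 was left out. It was at 508, 484 and 635 CPM in OLIG2-negative sums of human replicate 2 and mouse replicates 1 and 2, against 225, 1049 and 662 CPM in OLIG2-positive sums. The difference was 1.86 ± 0.24 (human minus mouse, log2; edgeR adjusted p = 4.9e-11) without that part and 1.54 ± 0.59 with it, which did not pass (0.72).

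**Figure D5:**
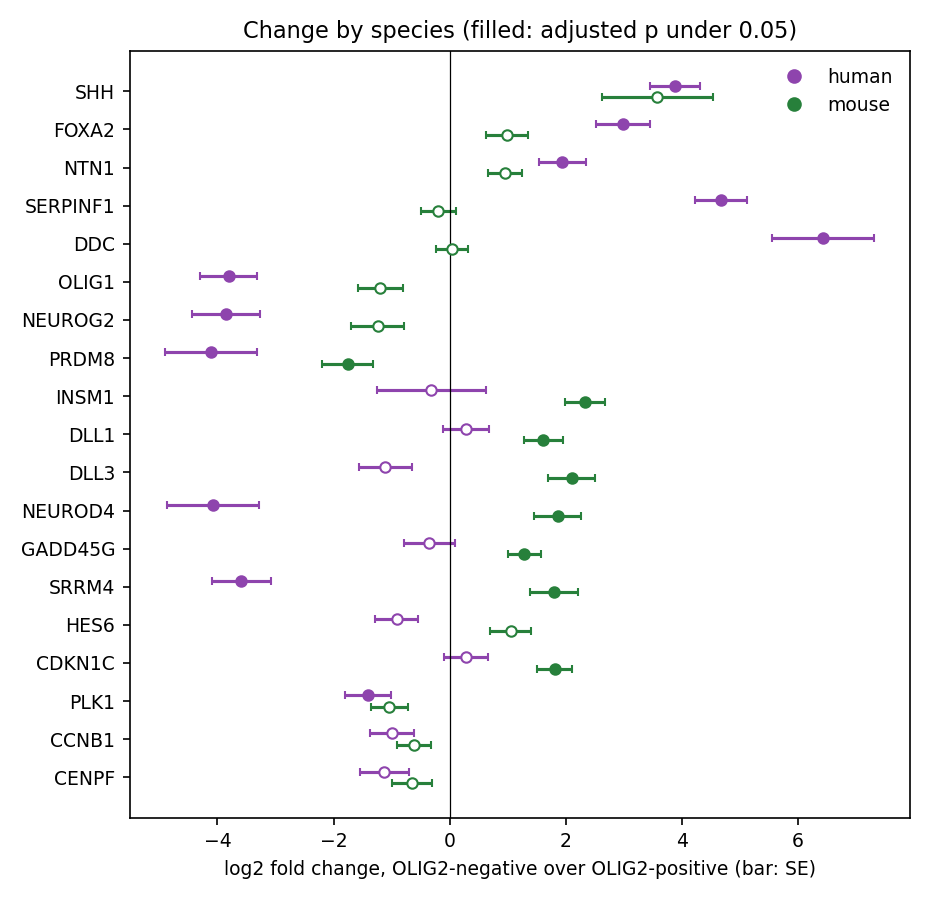
Log2 fold change, OLIG2-negative over OLIG2-positive (x axis), of 19 genes (y axis) in human (purple) and mouse (green), with SE as bars and filled points at an edgeR adjusted p under 0.05. SHH, FOXA2 and NTN1 are positive in both species, whereas NEUROD4 and SRRM4 are filled below 0 in human and above 0 in mouse.

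Markers of other cell types were looked at beside these results. KRT8 and KRT18, keratins of simple epithelia, rose by 2.37 ± 0.36 and 2.09 ± 0.35 over both species (edgeR adjusted p = 3.6e-08 and 1.6e-06), as 2 of 3 tested genes of an epithelium and endoderm list, where 0.554% of all tested genes rose. In human replicate 2 they held 195 and 151 UMIs in OLIG2-negative and 99 and 88 in OLIG2-positive cells, and at most 2 UMIs in any mouse sum. That list of 11 genes had UMIs from 5 genes and 372 CPM in OLIG2-negative cells of human replicate 2, against 3 genes and 79.6 CPM in OLIG2-positive cells. EPCAM, an epithelial adhesion protein, stood at 18.1 and 14.0 CPM there. The part of such cells in the floor plate result was not tested. Neither keratin was called without the FOXA2 or SHH cells, but that fit held 22 instead of 50 OLIG2-negative cells of human replicate 2. The lost calls can therefore not be put down to the cells left out alone. Lists of endothelial, forebrain and mesoderm markers summed to at most 15.4 CPM in any sum, and that of neural crest and mesenchyme to 74.3 CPM in OLIG2-negative and 26.3 CPM in OLIG2-positive cells of human replicate 2. None of 19 tested stress genes passed over both species.

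Whether the contrast was particular to NKX2-2 cells was tested by setting it against the same contrast among SOX2-positive, STMN2-negative cells with 0 NKX2-2 UMIs, 1988 without and 2553 with OLIG2. Of 10438 genes tested, 0 (0.0%) had a different OLIG2 contrast in NKX2-2-positive than in NKX2-2-negative progenitors by edgeR, with 489 at an unadjusted p under 0.05, and DESeq2 also called 0. SHH was at 0.452, 64.8, 1.68 and 2.31 CPM in OLIG2-negative cells without NKX2-2 in the 4 parts, against 0, 3.68, 0.144 and 0.0641 CPM in OLIG2-positive cells without NKX2-2. Its contrast differed between the NKX2-2 classes by -0.08 ± 0.33 (log2; edgeR adjusted p = 1.0), and that of OLIG1 by 1.56 ± 0.72 (adjusted p = 1.0). The gene with the smallest p was BTBD17, whose OLIG2 contrast was more positive by 3.22 ± 0.55 in NKX2-2-positive cells (adjusted p = 0.163). It passed with an adjusted p of 0.0045 after thinning, 0.0023 without human replicate 2 and 0.0019 with no filter on low counts. BTBD17 was at 195 and 110 CPM in OLIG2-negative sums of mouse replicates 1 and 2, against 37.3 and 36.8 CPM in OLIG2-positive sums. The next smallest p-values were those of TMEM135, INSM1, DQX1 and NKX3-2, which differed by -2.36 ± 0.48, 3.28 ± 0.69, 3.41 ± 0.72 and -4.28 ± 0.82 (adjusted p = 0.41 each). DQX1 passed without mouse replicate 2 (0.0045) and INSM1 with no filter on low counts (0.035).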

How the data were processed

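Values are UMI counts per gene and cell as the authors deposited them. Per the submitters' processing notes, Cell Ranger 3.1.0 and the builds hg38 and mm10 were used. Symbols were upper-cased, and 15472 were shared by all 4 library parts. Cells needed 1000 UMIs, 500 genes and at most 10% mitochondrial UMIs, which 15, 215, 5 and 77 cells failed in human replicate 1, human replicate 2, mouse replicate 1 and mouse replicate 2. Used cells had medians of 11195, 16709, 19197.5 and 29435 UMIs in that order. The members and gene lists were chosen with earlier results of these data known. Sums per part and side were tested with edgeR 4.0.16 (TMM, filterByExpr minimum count 10, library part as block, Benjamini-Hochberg over all genes tested, threshold 0.05), after checks on simulated data. The part is the block because both sides come from its cells. SOX2, NKX2-2, OLIG2 and STMN2 were not tested. SE is the log2 fold change divided by the square root of F. The text names members of the domain lists, the called genes with the largest change and the same sign in every part, and the smallest p-values between species. The rule was repeated without human replicate 1, where only some of the genes it names are given, and other genes named were chosen after their values were seen. DESeq2 1.42.0, thinning, a gate of 2 UMIs and left-out parts are alternatives. Some genes of the lists are not reported here.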

Additional observations from a re-analysis of the deposited data

Results flagged for a closer look

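The change between OLIG2-negative and OLIG2-positive progenitors differed between human and mouse in 21 genes by the edgeR test of the difference itself (human minus mouse, log2), and 10 of them are given here. More positive in human were SERPINF1, by 4.87, DDC, by 6.39, and SLC1A3, by 2.65. More positive in mouse were SRRM4 at -5.39, NEUROD4 at -5.94, IGFBPL1 at -4.27, DLL3 at -3.21, NEUROG1 at -3.02, HES6 at -1.97 and NHLH1 at -5.07. The human side of each value is close to replicate 2 alone. HES6, a Notch inhibitor of differentiating progenitors, stood at 86.7, 422, 138 and 92.3 CPM in OLIG2-negative sums of the 4 parts, human first, against 459, 590, 53.9 and 57.6 CPM in OLIG2-positive sums. NHLH1, a factor of newborn neurons, had 2 and 37 UMIs in OLIG2-negative and OLIG2-positive cells of human replicate 2, a ratio of CPM of 0.155 with a counting interval of 0.0181 to 0.600.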

How the results depend on the processing

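Counts of called genes are given over both species, in human, in mouse and for the species difference, beside 76, 71, 32 and 21. With no replicate block, which pairs both sides of a library part, they were 0, 3, 0 and 0. DESeq2's Wald test gave 7, 7, 4 and 4. Thinning gave 34, 32, 11 and 12, and 1 gene for the difference between NKX2-2 classes. Without the FOXA2 or SHH cells 26 genes passed over both species and 18 in human. Adding the removal of human replicate 1, chosen after seeing the data, gave 31 over both species and 19 in mouse with thinning, and 10, 9, 18 and 13 without FOXA2 or SHH cells. A gate of 2 UMIs gave 116 in mouse and 37 for the species difference, and fitting each species alone gave 27 in human and 82 in mouse. Without a filter on low counts, 2 genes differed between NKX2-2 classes. DESeq2 size factors and removal of doublet calls kept every count within 1.5 times. The cause of these shifts was not tested.

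Leaving out 1 library part at a time gave 28 to 50 calls over both species, 61 to 313 in human, 3 to 90 in mouse, 4 to 273 for the species difference and 0 to 3 between NKX2-2 classes. The 313 and 273 came without human replicate 2, where 1 OLIG2-negative human cell remains. A lone part was assumed to vary like the others. Changes of sign were seen for NKX6-1 over both species (-0.48 to 0.046, and 0.013 without human replicate 1 and the FOXA2 or SHH cells). In human they were seen for SERPINF1 (-6.55 to 5.28), KRT18 (-7.01 to 2.31), APOE (-6.36 to 3.01), NFIA (-3.66 to 1.81) and SLC1A3 (-7.55 to 1.48), and in mouse for NEUROG1 (-5.67 to 2.04). For the species difference they were seen for SERPINF1 (-6.36 to 5.54), DDC (-0.038 to 7.04), NEUROG1 (-9.66 to 4.36) and SLC1A3 (-6.23 to 2.86), and between NKX2-2 classes for SHH (-0.40 to 0.052). Over 109 gene comparisons, the alternatives gave 887 values on the same side of the threshold, 510 that lost it, 43 that gained it and 13 of opposite sign. The species difference in the share without OLIG2 ran from -17.3 (thinned) to -26.0 (gate of 2 UMIs).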
